A study of Gallus gallus with 31 samples.

Results

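The genes described here are 104 spots of a chicken cDNA microarray: 4 spots printed with immunoglobulin clones and the 100 other spots whose level followed theirs most closely from bird to bird. In the deposited log2 ratios, the mean of each group of line and age was subtracted from every spot, the 4 immunoglobulin spots were averaged, and the other 7904 spots considered (19200 were printed in all) were ranked by their Pearson r with that average. All but 1 of the 4 immunoglobulin spots were themselves among the 7907 spots with a value on at least 24 arrays. The members were thus chosen on deviations of single birds from their group mean. The group means, and with them the age course and the difference between the lines, played no part in choosing the 100 followers, whereas the 4 immunoglobulin spots were picked with earlier results of these data known.

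Anterior pituitary glands came from male meat-type chickens of 2 lines divergently selected on juvenile body weight, high growth (HG) and low growth (LG), when they were 1, 3, 5 or 7 weeks old. There were 4 birds in each group of line and age and 3 in HG at week 1, giving 31 arrays. On each array the amplified RNA of 1 bird, labelled with Cy3, was hybridised with a Cy5-labelled pool of all birds, so that a log2 ratio of 0 is the level of the pool. The lines were reared apart until week 3 and together afterwards, so at weeks 1 and 3 line and pen cannot be told apart, and a line difference at any age is one between whole selected genomes. Spots of prolactin, the common glycoprotein hormone subunit CGA and growth hormone (GH) were brighter than 94.6, 92.8 and 89.3% of all spots. Not all hormone spots were as bright. A further GH spot stood at the 32.6th percentile, POMC spots at 67.5 and 59.7 and the LHB spot at 66.5. Between 14786 and 18342 spots per array (median 16781) were flagged as good. The number of arrays limits the precision.

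Immunoglobulins are made by B lymphocytes and, in large amounts, by plasma cells, the antibody-secreting cells that B lymphocytes become. An antibody joins heavy chains, whose class (mu, alpha or, in birds, upsilon) sets its function, to light chains, and birds use only light chains of the lambda type. The J chain, encoded by JCHAIN, links the units of secreted polymeric IgM and IgA. In chickens B cells mature in the bursa of Fabricius and then settle in other tissues. Since the RNA came from whole glands, fewer cells of a type and less RNA per cell cannot be told apart.

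The array carried 8 spots that the study named as immunoglobulin. Those names come from the study's lists of spots with a significant line, age or interaction effect. Immunoglobulin clones without such an effect may therefore be missed, and 8238 spots had no name. The 4 that defined the signal were JCHAIN and 3 spots named immunoglobulin lambda-like polypeptide 1 (IGLL1/IGLL5), that is, lambda light chain. Their deviations were closely tied to each other, with pairwise r from 0.78 to 0.95. They are called light chain spots A, B and C here, in the order of their print blocks. Another 2, named immunoglobulin alpha heavy chain and Ig heavy chain V region, were followers with r of 0.89 and 0.85. The last 2 had too few deposited values to be ranked. A second V region spot, with values on 18 arrays, had r = 0.87, and a further lambda spot, with values on 16 arrays, had r = 0.25. Of the 8 named spots, 7 therefore varied together among birds of a group, across clones of light chain, heavy chain and J chain. They include the 4 that define the average and the 2 followers, which were chosen for their r with it. The 2 spots outside that choice were split, with r of 0.87 and 0.25.

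Among the followers, agreement with the immunoglobulin average dropped steeply with rank. The highest r was 0.95, 11 spots had an r of at least 0.8, 28 of at least 0.6 and 66 of at least 0.5. The last member, a SARAF spot, had r = 0.4592 and the first spot left out, of CNOT9, had r = 0.4588. On the opposite side of the ranking 0 spots lay at or under -0.8 and 10 at or under -0.6, but 69 lay at or under -0.5 and 121 at or under minus the r of the last member. The upper end of the list thus had no counterpart of opposite sign, and its lower end was matched by a larger number of spots that varied against immunoglobulin.

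**Figure D1:**
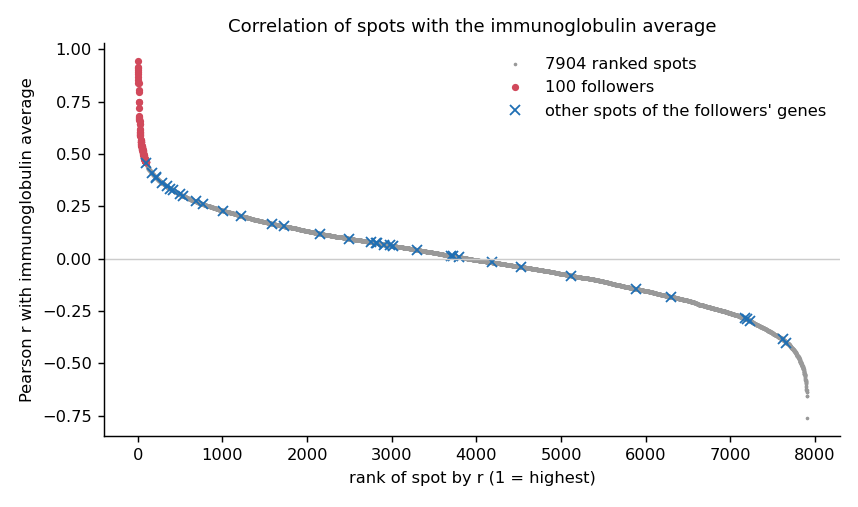
Pearson r of each of the 7904 ranked spots with the immunoglobulin average (vertical axis) against its rank (horizontal axis). Red points are the 100 followers and blue crosses are other spots of the same genes, most of which lie far down the ranking.

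The 11 followers of r at least 0.8 are described here as the core. Their r with each other had a median of 0.84 and a lowest value of 0.62, which follows largely from how they were picked. Besides the 2 heavy chain spots, the core held spots annotated TMCC2 (r = 0.95), a coiled-coil protein of membranes, EHD3 (0.92), which acts in endosomal recycling, MIB2 (0.88), a ubiquitin ligase of Notch ligands, VPS37D (0.86), a subunit of the ESCRT-I sorting complex, MAPRE2 (0.84), a protein of growing microtubule ends, and LOXL2 (0.81), an enzyme that cross-links collagen. A spot that the study named Cog4S (0.84) and 2 spots with no name, 29.8.18 (0.91) and 40.17.17 (0.90), completed it. Core spots also moved on the scale of immunoglobulin. Per log2 unit of the immunoglobulin average, the alpha heavy chain spot changed by 1.18, the V region spot by 1.05, spot 40.17.17 by 1.00, TMCC2 by 0.79 and MAPRE2 by 0.35. The slope had a median of 0.14 over all 100 followers and a lowest value of 0.05.

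The gene names of the core rest on clone annotation, which was not checked against sequence here. Other spots of the same genes followed immunoglobulin less closely or not at all. A second TMCC2 spot had r = -0.10 and slope -0.03, and 2 further MAPRE2 spots had r of -0.15 and -0.40. A second MIB2 spot, measured on 13 arrays, had r = 0.06. For EHD3 a second spot had r = 0.46, just under the last member, with a slope of 0.12 instead of 0.72. The core held 3 of the 9 spots that the study's tables list with a clone of library prefix pco1c (the V region, Cog4S and LOXL2 spots), a prefix carried by 0.695% of the spots for which a clone is listed. Members printed at the same row and column of different print blocks included 3 core spots at row 17 and column 17 (spot 40.17.17, Cog4S and LOXL2) and 2 at row 5 and column 13 (TMCC2 and VPS37D). What part clone identity or print position had in these correlations was not tested.

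Over the whole list, 35 follower genes had another spot with deposited values on at least 12 arrays, 56 such spots in all. Only 2 of the 56 were members, the pair of CTSS spots, and the other 54 had a median r of 0.06. CTSS encodes cathepsin S, the protease that frees MHC class II molecules from the invariant chain, and its 4 spots had r of 0.58, 0.51, 0.50 and 0.35. CHEK1, a kinase of the DNA damage checkpoint, had further spots at 0.41 and 0.36. By contrast OGT (member spot at 0.52) had other spots at -0.38 and -0.04, SELENOS (0.52) at -0.30, 0.01 and 0.06, AARS1 (0.51) at -0.29 and -0.14, and AIMP2 (0.50) at -0.29 and 0.04. The most negative was an OXCT1 spot at -0.82, on 14 arrays, against 0.59 for the OXCT1 member. CTSS and OXCT1 were named by rule, and the other 5 genes were chosen for mention after their values were seen.

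Of the 100 followers, 60 carried a symbol in the platform annotation, 9 only a name in the study's tables and 31 no name. The 64 with a single symbol covered 63 different genes. Followers were not bright spots in particular, with a median brightness percentile of 69.7 against 74.5 over all ranked spots. On the slide, 13 of them lay in the first column of their print block, which held 5.3% of the ranked spots, and 10 in column 19, which held 4.61%. None of the 100 lay next to an immunoglobulin spot.

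The birds that carried the signal were few. The deviation of the immunoglobulin average from the group mean was 1.93 in LG week 3 bird 4, 0.94 in HG week 3 bird 2 and 0.91 in LG week 5 bird 2, and at most 0.41 in any other bird. On the low side stood LG week 7 bird 2 at -1.08 and LG week 3 birds 3 and 2 at -0.95 and -0.92. The levels themselves, from the scanner intensities, followed this order in week 3. The mean log2 ratio over the immunoglobulin spots was 2.09 in LG week 3 bird 4 and between -1.49 and -0.54 in the other 3 birds of its group, whereas the 4 HG birds at week 7 lay between -1.21 and -0.82. Each mean is over the spots measured in that bird, and light chain spots A and C were each good on 3 of the 4 LG week 3 arrays. The deviations of LG week 3 bird 1 and HG week 1 bird 1 rest on 1 deposited value each. In the core LG week 3 bird 4 stood at 1.61 and its group mates at -0.92 to -0.56. The LOXL2 spot of the core did not share this. Its Cy3 signal was at most 4.54 times background over the 4 LG week 3 birds, against a median of 6.22 in HG at week 3. Every other core spot reached at least 11.1 times background in an LG week 3 bird. In the mean of the 89 other followers LG week 3 bird 4 stood at 0.44, where no other bird exceeded 0.19.

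**Figure D2:**
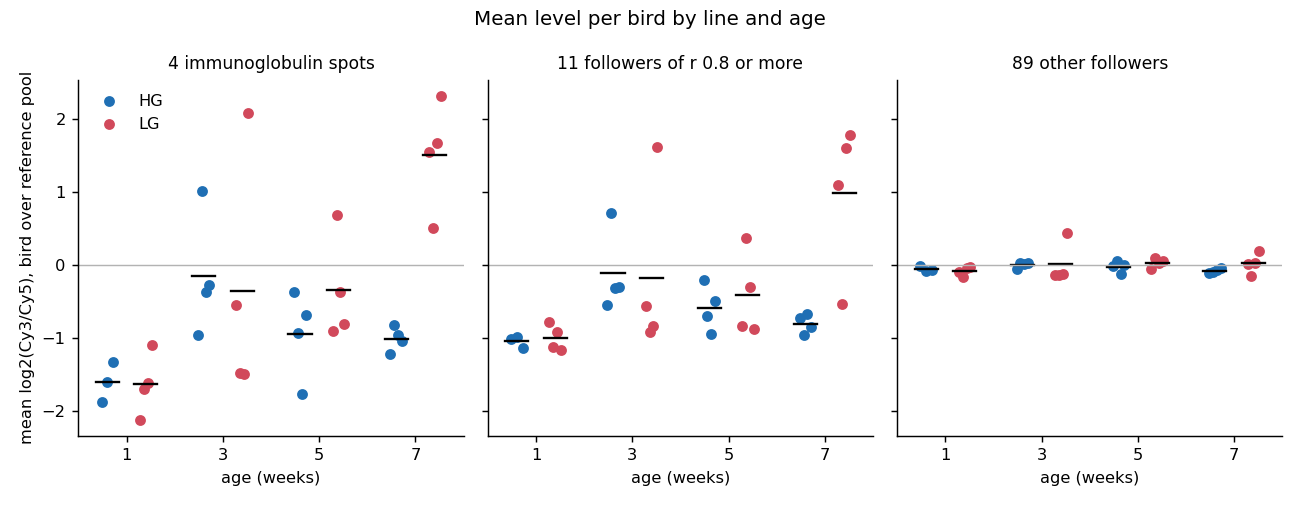
Mean log2(Cy3/Cy5) per bird over the 4 immunoglobulin spots, the 11 core followers and the 89 other followers (vertical axis), by age in weeks and line, each over the spots measured in that bird. Points are birds and black bars are group means; LG week 3 bird 4 and 3 of the LG week 7 birds stand above 1 in both the first and second panels, and the third panel spans -0.17 to 0.44.

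Leaving out that 1 bird and applying the rule to the other 30 kept all 11 core spots but only 24 of the 89 other followers. Without it the r of the core ranged from 0.67 to 0.86 and that of the others had a median of 0.29, down from 0.52, with 6 below 0. When HG week 3 bird 2 and LG week 5 bird 2 were left out as well, 8 of 11 core spots and 14 of the 89 others were kept. The r of the core then ranged from 0.18 to 0.85, with a median of 0.57. Without the 4 LG week 7 birds, all 11 core spots and 55 others were kept. The list below the core was therefore largely decided by a single bird. All 11 core spots were found again whichever single bird was left out. That was in large part set by the choice, since they started at r of at least 0.8. Being kept without LG week 3 bird 4 took an r of only 0.43.

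**Figure D3:**
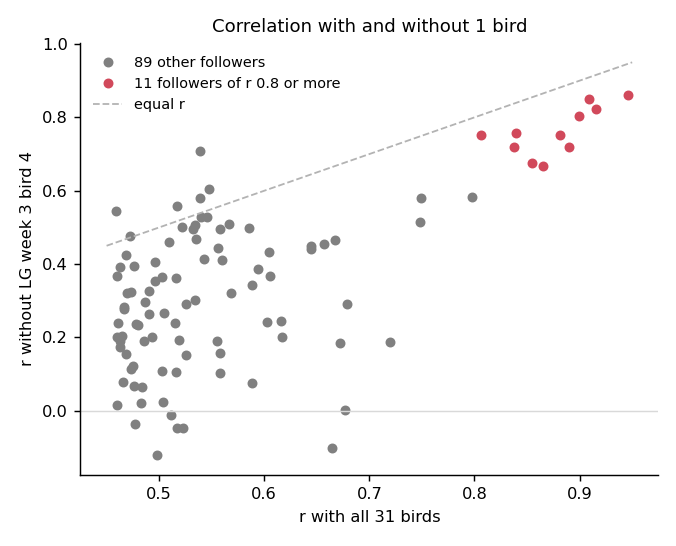
Pearson r of each of the 100 followers with the immunoglobulin average in 31 birds (horizontal axis) and without LG week 3 bird 4 (vertical axis). Red points are the 11 core spots, which stay between 0.67 and 0.86; grey points are the 89 others, most of which fall below the dashed line of equal r.

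In the same bird, several lists of other immune genes were high against its group mates, though not all. The mean log2 ratio over 6 T cell and NK cell spots (CD3E, TCF7, IL2RG and GNLY) was 0.91, against at most 0.12 in its group mates, and over 22 general leukocyte spots it was 0.39 against at most 0.01. It was 0.37 against at most 0.08 over 13 spots of MHC class II antigen presentation, 0.65 against at most 0.17 over 9 chemokine and homing spots, 0.40 against at most 0.18 over 33 interferon response spots, and 0.36 against at most 0.03 over 28 spots of MHC class I antigen presentation. Of the 9 chemokine and homing spots only 1, and of the 6 T cell and NK cell spots only 3, had deposited values on at least 24 arrays. The interferon and MHC class I lists were higher still in LG at week 5, where single birds reached 0.75 and 0.67. Over 18 macrophage and granulocyte spots it was only 0.08 against at most -0.01. Followers chosen partly on this bird are among these spots, DMA and 2 CTSS spots in the MHC class II list, the same CTSS spots in the macrophage list and PTPN6 in the general leukocyte list, so those means are in part set by the choice. Without the bird the r of DMA was 0.20 instead of 0.62. Erythrocyte spots (0.19 against at most 0.20) did not stand out in it. The 5 other B cell spots that could be tested (BTK, BCL6 and IRF4) did not either, at -0.03 against up to 0.40. They had few deposited values, on 11 of 31 arrays for BTK, 2 for IRF4 and 20, 18 and 0 for BCL6. Their mean is therefore a poor measure of B cells. The part of these cells in the result was not tested.

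At week 7, where JCHAIN and the light chain spots were higher in all 4 LG birds than in any HG bird, the other leukocyte lists were closer to the pool. The T cell and NK cell mean ranged over -0.52 to 0.14 in LG and -0.24 to 0.03 in HG, and the B cell mean without immunoglobulin over -0.02 to 0.10 in LG and -0.15 to 0.19 in HG. The B cell mean rests on the same BTK, BCL6 and IRF4 spots with few deposited values. General leukocyte spots ranged over 0.03 to 0.21 in LG and -0.12 to 0.11 in HG. MHC class II spots ranged over 0.06 to 0.36 and -0.12 to 0.07, where the lowest LG bird (0.0649) and the highest HG bird (0.0652) all but met. Macrophage and granulocyte spots ranged over -0.03 to 0.16 in LG and -0.13 to 0.11 in HG, and MHC class I spots over -0.11 to 0.16 and -0.32 to -0.05. Interferon response spots ranged over -0.34 to -0.13 and -0.50 to -0.22, and chemokine and homing spots over -0.08 to 0.17 and -0.14 to 0.11. The lines overlapped in each of these lists, with the median LG bird above the median HG bird. The erythrocyte mean separated the lines at that age, at -0.10 to 0.34 in LG and -0.59 to -0.23 in HG. What part it had in the line difference was not tested.

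Few followers stood on the lists of leukocyte or secretory genes. PTPN6, a phosphatase that restrains signalling in blood cells, had r = 0.64, DMA, which loads peptides on MHC class II, 0.62, the 2 CTSS spots 0.51 and 0.50, and ATF4, a transcription factor of the integrated stress response, 0.46. Together with LOXL2, listed under extracellular matrix, these were all the followers on the 19 marker lists. Of the 8 ranked spots of MHC class II antigen presentation 3 were followers (37.5%), with a median r of 0.31 over the list, and 7 of the 8 had r above 0. Of the 10 macrophage and granulocyte spots, which include the same CTSS spots, 2 were followers, but the median r was 0.04 and 5 lay above 0. The 13 spots of MHC class I antigen presentation held 0 followers and had a median r of 0.10. Of the 15 general leukocyte spots 1 was a follower, the list's median r was 0.26, and 12 lay above 0. The 23 interferon response spots held no follower, yet 20 had r above 0, with a median of 0.25. Over all ranked spots 1.27% were followers and the median r was 0.00. For the 57 ranked spots of endoplasmic reticulum folding and early secretion, genes that plasma cells use heavily, the median was -0.03, with 1 follower (ATF4). The 13 spots of pituitary hormones and their processing had a median r of 0.09 and the 10 erythrocyte spots 0.17. T cell and NK cell genes had only 3 ranked spots (median r 0.29), chemokine and homing genes only 1 (r = -0.08), and B cell genes other than the chosen spots had none. All these r include LG week 3 bird 4, where the immunoglobulin average deviated by 1.93. The mean deviation of the ranked spots in that bird was 0.69 for T cells and NK cells and 0.35 for interferon response. It was 0.27 for MHC class II and 0.26 for general leukocytes. What part that bird had in the r of these lists was not tested.

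In week 1 JCHAIN was low in both lines. JCHAIN log2 ratios were -1.09, -1.05 and -1.004 in the 3 HG birds and -1.56, -1.36, -1.03 and -0.75 in the 4 LG birds. At week 3 the measured values were -0.33, 0.09 and 0.59 in HG and -0.77, -0.51, -0.47 and 1.56 in LG, where the last is bird 4. HG birds at week 5 stood at -1.07, -0.42, -0.05 and -0.01, and LG birds at -0.86, -0.74, 0.02 and 0.64. At week 7 HG birds had -0.93, -0.91, -0.76 and -0.47 and LG birds 0.83, 1.17, 1.48 and 1.86. The lines overlapped at weeks 1, 3 and 5 and were apart at week 7. The HG mean was highest at week 3 (0.11) and stood at -0.77 at week 7, and the LG mean was highest at week 7 (1.33). No value was measured in HG week 3 bird 1.

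Light chain spots A and C covered a wider range. Spot A averaged -2.45 ± 0.38 (SD) in HG and -2.40 ± 0.57 in LG at week 1, -1.38 ± 0.19 in HG and 1.81 ± 1.14 in LG at week 7. Levels this far below the pool were dim. The median Cy3 signal of the 4 chosen and 11 core spots was 1.52 to 19.5 times the local background at week 1 and 12.6 to 72.8 times in LG at week 7, and light chain spot C had no deposited value in any week 1 bird. Spot B was not lowest at week 1 in HG. It averaged -0.40, -0.15, -0.75 and -0.64 in HG at weeks 1, 3, 5 and 7, and -0.65, -0.21, -0.37 and 0.92 in LG. The lambda spot outside the choice, with values on 16 arrays, had its highest mean in HG at week 3 (0.92) and averaged -0.14 in LG at week 7.

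The alpha heavy chain spot differed from JCHAIN in 1 bird. At week 7 it measured -3.45, -2.34, -2.21 and -2.05 in HG and 1.42, 2.61 and 2.64 in LG birds 1, 4 and 3, but -2.84 in LG bird 2. The V region spot was at -1.64 in that bird and at 1.43 to 2.74 in the other 3. JCHAIN was at 0.83 and the 3 light chain spots at 0.10 to 0.84 in it, above all 4 HG birds. In LG bird 2 the ranked heavy chain spots lay within the HG range while J chain and light chain lay above it. That array had the second lowest number of deposited values of the 31 (6406), JCHAIN had no deposited value on it, and the heavy chain spots had their lowest Cy3 signals among LG birds of that age at 2.77 and 2.90 times background. A difference between the chains was not tested.

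**Figure D4:**
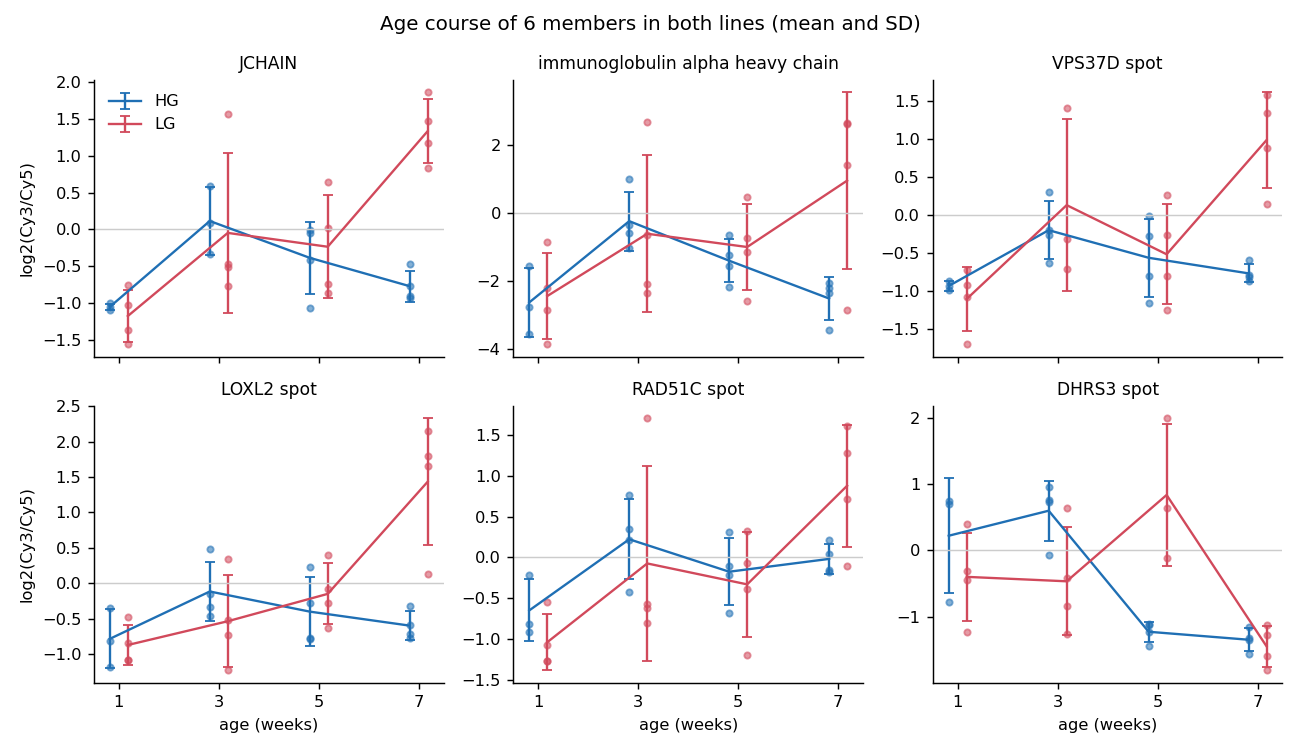
Log2(Cy3/Cy5) (vertical axis) of 6 member spots by age in weeks (horizontal axis) in HG (blue) and LG (red) birds; small points are birds, lines join group means and error bars are SD. JCHAIN, LOXL2 and VPS37D are highest in LG at week 7, where their birds do not overlap with HG; DHRS3 is lowest in both lines at week 7.

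Core followers, whose group means were not used to choose them, had this course too. All 11 had their highest group mean in LG at week 7, as had 18 of the 89 other followers (20.2%) and 11.9% of all spots tested. The 11 were read in the same birds, had a median r of 0.84 with each other and include immunoglobulin heavy chain spots. They are therefore not 11 separate results, here or in the counts of core spots below. The lowest group mean of 9 core spots was at week 1. The core averaged -1.05 ± 0.08 (SD over birds) in HG and -0.995 ± 0.178 in LG at week 1. Week 3 values were -0.11 ± 0.56 and -0.18 ± 1.20, those of week 5 were -0.58 ± 0.31 and -0.41 ± 0.58, and at week 7 they were -0.80 ± 0.13 and 0.99 ± 1.06. Spread between birds was thus wide in LG from week 3 on and in HG at week 3, and narrow in both lines at week 1 and in HG at week 7. In LG it rested largely on bird 4 at week 3 (1.61) and bird 2 at week 7 (-0.54). The core was chosen on deviations of birds from their group mean, so its spread is in part set by the choice. The other 89 stayed near the pool, with group averages between -0.08 and 0.03.

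All 104 members passed the filter on measured arrays and were tested with the other spots in limma, 15662 in all, with Benjamini-Hochberg adjustment over all of them at 0.05. Between weeks 1 and 7 in LG, 8 of the 104 members rose and 0 fell. Of these, 5 were among the 100 followers and 3 were immunoglobulin spots, which were picked with earlier results known. Only the followers can therefore be set against the share over all spots. Over all spots tested 0.179% rose in that comparison and 0.294% passed in either direction. The 8 were JCHAIN, 2 light chain spots, TMCC2, MIB2, VPS37D, LOXL2 and RAD51C, a recombination protein whose spot (r = 0.75) ranked just below the core. LOXL2 rose by 2.30 ± 0.35 (log2 difference ± SE, adjusted p = 0.00102) and JCHAIN by 2.51 ± 0.38 (adjusted p = 0.00110), and both passed in every alternative that tested them. VPS37D, which did so too, rose by 2.10 ± 0.37 (adjusted p = 0.00577). Light chain spot A rose by 4.21 ± 0.78 (adjusted p = 0.0102), whereas spot B, at 1.57 ± 0.41, missed the threshold (adjusted p = 0.112). For light chain spot C (adjusted p = 0.0334) no size is given, since its median signal at week 1 was only 1.52 times background in HG and 1.75 times in LG. TMCC2 rose by 2.48 ± 0.47 (adjusted p = 0.0139), RAD51C by 1.91 ± 0.42 (adjusted p = 0.0388) and MIB2 by 1.65 ± 0.36 (adjusted p = 0.0402). The MIB2 call held in 22 alternatives and was lost in 18, that of RAD51C in 29 and 12. The calls of light chain spot C and TMCC2 were lost in 6 and 3, and that of spot A in 1. All 11 core spots had positive differences, from 0.55 to 3.39 with a median of 2.10, and an unadjusted p under 0.05, as did 4.25% of all spots in that direction. The 89 others had a median of 0.08 and all spots tested one of -0.01. Without LG week 7 bird 4, 3 or 1 the count of members was 3, 4 or 5, without any one of LG week 1 birds 1 to 3 it was 5, and without LG week 7 bird 2 it was 13. The shares of all spots with a bird left out are not given here. In the deposited values 14 of the 97 members tested passed, 3 immunoglobulin, 9 core and 2 other spots, with 0.957% of all spots.

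In HG the same comparison called 0 members, with 0.147% of all spots called, and 8 at an unadjusted p under 0.05, where 8.48% of all spots were. The core's differences ran from -0.08 to 0.74 (median 0.19), and 0 of its 11 spots had an unadjusted p under 0.05. The test that the age course differed between the lines (interaction of line and age) passed for 0 members and for 0% of all spots. At an unadjusted p under 0.05 the test took all 4 immunoglobulin spots, which were picked with earlier results known. Of the followers it took 6 of the 11 core spots and 7 of the 89 others, against 2.61% of all spots. Without LG week 3 bird 4 it passed for 2 members and without LG week 7 bird 2 for 1 (shares of all spots not given).

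At week 7, 2 members were lower in HG than in LG, JCHAIN and LOXL2, and 0 were higher (0.0255% of all spots tested were lower and 0.0319% passed in either direction). Of the 100 followers only 1 passed, LOXL2, since JCHAIN is among the immunoglobulin spots picked with earlier results known. LOXL2 stood at -0.77, -0.71, -0.58 and -0.32 in HG birds and at 0.13, 1.65, 1.80 and 2.15 in LG birds. The HG minus LG difference was -2.03 ± 0.35 (log2 ± SE, adjusted p = 0.0176), a ratio 4.08-fold lower in HG. For JCHAIN it was -2.10 ± 0.38 (adjusted p = 0.0269), or 4.30-fold. The lines did not overlap for either spot. The count rested on single birds: it was 7 without LG week 3 bird 4, 5 without LG week 7 bird 2, 1 without HG week 7 bird 2, and 0 without any one of HG week 7 birds 1, 3 and 4 or LG week 7 birds 1, 3 and 4. The shares of all spots without those birds are not given here. In the deposited values 13 of the 97 members tested passed, 3 immunoglobulin, 8 core and 2 other spots, with 0.765% of all spots.

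The other core spots had differences in the same direction that missed the adjusted threshold. EHD3 levels lay between -0.78 and -0.69 in the HG birds and between 0.24 and 1.99 in the LG birds, a difference of -1.99 ± 0.47 (adjusted p = 0.172). VPS37D differed by -1.76 ± 0.37 (adjusted p = 0.152), TMCC2 by -1.97 ± 0.51 (adjusted p = 0.244) and the alpha heavy chain by -3.46 ± 0.99 (adjusted p = 0.310). At an unadjusted p under 0.05 all 11 core spots and 8 of the 89 others were lower in HG, against 2.89% of all spots lower, and 0 members were higher. Every LG bird was above every HG bird for 12 of the 100 followers, 7 core and 5 other spots, against 2.79% of all spots tested. All 4 immunoglobulin spots met both conditions too, but they were picked with earlier results known. The reverse order was met by 0 members. The 5 others were OXCT1, TMED7 and BCAN spots and 2 unnamed ones.

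**Figure D5:**
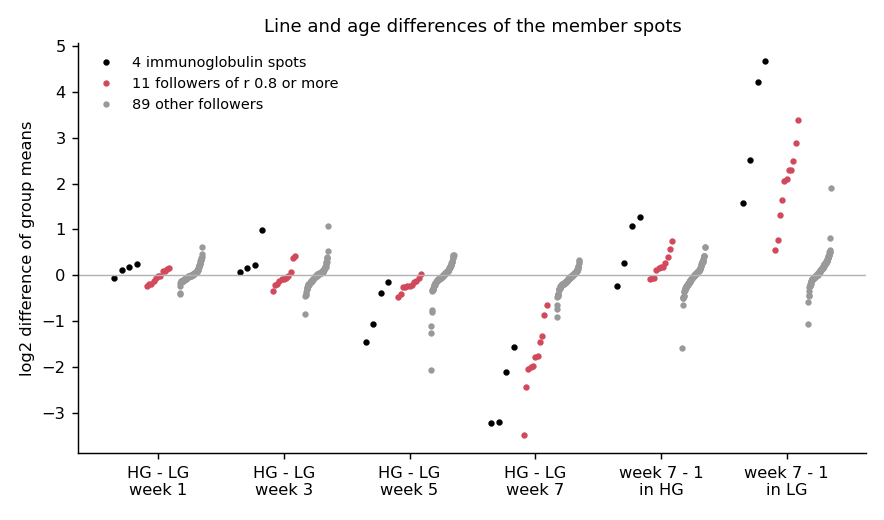
Log2 differences of group means (vertical axis) for the 4 immunoglobulin spots (black), 11 core spots (red) and 89 other followers (grey) in 6 comparisons (horizontal axis), each set sorted by size. The core lies below 0 for HG minus LG at week 7 and above 0 for week 7 minus week 1 in LG, and near 0 at weeks 1 and 3.

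At weeks 1, 3 and 5 no member differed between the lines at the adjusted threshold, where 0%, 0% and 0.0447% of all spots did. At an unadjusted p under 0.05 there were 1, 5 and 13 members, against 3.1, 4.14 and 5.67% of all spots, and 0 of them were core or immunoglobulin spots. Without LG week 5 bird 1 the adjusted count at week 5 was 3 (share of all spots not given). The core's median HG minus LG difference was -0.02, -0.07, -0.23 and -1.77 over the 4 ages in turn. Averaged over ages, 0 members passed for line (0.389% of all spots passed). All 15 immunoglobulin and core spots had lower means in HG (differences of -1.01 to -0.21), and 8 of them had an unadjusted p under 0.05. So had 14 of the 100 followers, against 7.48% of all spots, and 16 of the 104 members.

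For age over both lines, 3 members passed: JCHAIN (adjusted p = 0.0454), DHRS3 (adjusted p = 0.0267) and the unnamed spot 31.6.9 (adjusted p = 0.0408), against 0.626% of all spots. Of these, 2 were among the 100 followers and JCHAIN is a chosen immunoglobulin spot. The JCHAIN call was lost in 26 of 40 alternatives and that of spot 31.6.9 in 23 of 41. The count was 9 without LG week 3 bird 4 and 0 without HG week 7 bird 1, 2 or 4 or LG week 7 bird 4. For those fits the share of all spots is not given. DHRS3 and spot 31.6.9 did not share the course of JCHAIN. DHRS3, which encodes an enzyme that reduces retinal to retinol, averaged 0.22 ± 0.87 (SD), 0.60 ± 0.45, -1.23 ± 0.15 and -1.35 ± 0.17 in HG at weeks 1, 3, 5 and 7, and -0.40 ± 0.67, -0.47 ± 0.82, 0.84 ± 1.07 and -1.45 ± 0.31 in LG. Its lowest mean was thus at week 7 in each line, and its week 5 levels did not overlap between them, at -1.44 to -1.11 in HG and -0.12 to 1.99 in the 3 LG birds measured. The HG minus LG difference at week 5, -2.07 ± 0.44, missed the threshold in limma (adjusted p = 0.0923). At that age every LG bird was above every HG bird for 2.03% of all spots tested. Other spots of DHRS3 had r of -0.04 and 0.15 with immunoglobulin. Spot 31.6.9 averaged 0.10 in HG and 0.16 in LG at week 1, and -0.36 and -0.18 at week 7.

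Of the remaining named followers none passed. ARPC1B, an actin nucleation subunit (r = 0.72), was at 1.33 in LG week 3 bird 4 and at -0.44 to 0.48 in every other bird, and differed between the lines at week 7 by 0.13 ± 0.23. PTPN6 and DMA differed by -0.16 ± 0.18 and -0.10 ± 0.22, and the CTSS spots by -0.19 ± 0.15 and -0.20 ± 0.16. Each of these had an adjusted p of 1.00 in limma. The spot that the platform lists as TRIM27.1 and the study as CYLD (r = 0.80), on which the sources disagree, differed by -0.72 ± 0.23 (adjusted p = 0.421). RBBP6 differed by -0.64 ± 0.29 (adjusted p = 0.913). C3H1ORF115, DNAAF2, CUBN, ATP13A1, RBBP6, ARHGEF3, UNC5A, OXCT1 and ZNF746 (r from 0.59 to 0.68) passed in none of the 9 comparisons.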

How the data were processed

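Anterior pituitary RNA of 31 birds was measured on 2-colour cDNA arrays. The authors read the spots with the TM4 software and deposited, per array, raw Cy3 and Cy5 intensity with spot flags, and, in the series' value table, normalised log2 ratios of bird over reference pool. These deposited log2 ratios chose the members, and the deposited intensities gave all levels and tests. Intensities were background-corrected (normexp, offset 50) and normalised by loess within each array in limma 3.58.1 (R 4.3.3), with spots not flagged good set to missing. A spot was tested when it had values on at least 16 arrays and at least 2 of each group (15662 spots). One model with a mean per group was fitted to all arrays with moderated variances, and p-values were adjusted by Benjamini-Hochberg at 0.05. Ranking and counting used Python 3.11.15, pandas 2.3.3 and numpy 2.4.6. The fit was tested on simulated data with known changes.

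By the methods of the study, replicates are different birds, whereas the labels give only a replicate number. The file header of HG week 1 bird 1 names week 3, and the label was followed. Gene symbols came from the platform annotation (10601 spots), then from the study's tables (361 spots), and 8238 spots had no name. Named spots are the 4 immunoglobulin spots, the 20 other members of highest r with exactly 1 symbol, members on a marker list, up to 5 members of smallest adjusted p per comparison, and all other spots named as immunoglobulin. Further spots named in the text, such as the unnamed or study-named core spots, were chosen after their values were seen. The members and lists were chosen with earlier results of these data known. Alternatives were other background and normalisation settings, other spot filters, array weights, the deposited ratios, a replicate block, each bird left out, and, for the ranking, Spearman correlation, other array minimums, scanner intensities and single immunoglobulin spots left out.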

Additional observations from a re-analysis of the deposited data

Results flagged for a closer look

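In the 29 spots named by rule, 182 groups of 4 birds were checked for a bird far from the other 3 by Dixon's criterion. It marked 14, where chance marks about 1 in 20 independent groups, or 9.1. These spots are members, chosen because they vary together within groups, so 14 cannot be weighed against 9.1. LG week 3 bird 4 accounted for 5 of the 14, and its deviation weighed most in choosing the members. Its log2 ratios were 1.56 for JCHAIN, 1.24 for light chain spot B, 1.70 for MIB2, 1.70 for RAD51C and 1.33 for ARPC1B, each above its group mates. HG week 7 bird 1 stood below its group for light chain spot A (-1.67) and EHD3 (-0.78). LG week 5 bird 4 stood apart for C3H1ORF115 (-0.82), CUBN (0.43) and ZNF746 (-0.64). HG week 5 bird 2 did so for ATP13A1 (0.41) and UNC5A (0.61), HG week 5 bird 3 for MAPRE2 (-0.57) and LG week 1 bird 1 for OXCT1 (0.0755).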

How the results depend on the processing

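Counts are members passing the adjusted threshold, 2 for HG minus LG at week 7, 3 for age, 8 for week 7 minus week 1 in LG and 0 elsewhere. At an unadjusted p under 0.05 they were 1, 5, 13 and 23 for the lines at weeks 1, 3, 5 and 7, 27 for age, 16 for line, 17 for the interaction, and 8 and 29 for week 7 minus week 1 in HG and LG. Of all 15662 spots tested, 1414 were under it for age, 814 for the lines at week 7 and 1143 for week 7 minus week 1 in LG. The deposited ratios gave 13 at week 7, 3 for line, 4 for age, 2 in HG and 14 in LG, of 97 members tested. Over all spots 0.765, 2.31, 1.88, 1 and 0.957% passed in turn. For every other setting, block or bird left out in this section, the share of all spots is not given. A change of those counts therefore cannot be told from a change over the whole array. At week 7 array weights gave 7, all positive spots 1 and spots on all 31 arrays 1. For age, all positive spots gave 1 and median centring 0. In LG, median centring gave 5 and spots on all 31 arrays 2. At week 5, no background correction gave 1. No named call changed direction, and the causes were not tested.

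With 1 bird left out, the counts ranged over 0 to 0 at weeks 1 and 3, 0 to 3 at week 5, 0 to 7 at week 7, 0 to 9 for age, 0 to 0 for line, 0 to 2 for the interaction, 0 to 1 in HG (1 without HG week 1 bird 4) and 3 to 13 in LG. Of the 100 followers 35 to 98 were kept, the fewest without LG week 3 bird 4, and 64 without LG week 3 bird 2. Scanner intensities kept 35, Spearman correlation 57, values on all 31 arrays 19 (all 19 that could be), values on 16 or more arrays 44, and the ranking without the 4 LG week 7 birds 66.

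Same-numbered birds tended to deviate together, with a median r of 0.21 (105 pairs, 78 over 0.1) against -0.06 for 315 other pairs (47 over 0.1). The number also went with the count of deposited values, 11436 to 12661 on arrays numbered 4 and 5606 to 10617 on those numbered 1. Not every pair was over 0.1 (lowest -0.18) and no label gives the number a meaning, so the main fit and ranking did not use it. What same-numbered arrays shared was not tested, although the ranking rests on such deviations. With the replicate block the counts were 2 at week 7, 4 for age, 9 in LG and 0 elsewhere, and 69 followers were kept. Chosen after seeing the data, leaving out LG week 3 bird 4, LG week 5 bird 2 and HG week 3 bird 2 together kept 22 followers, and the deposited ratios with the replicate block gave 13 at week 7, 6 for age, 6 for line, 2 in HG and 16 in LG. Signal limits week 1, where the median Cy3 signal of light chain spot C was 1.52 times background in HG.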

Other observations

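On the opposite side of the ranking, the lowest r with the immunoglobulin average was -0.76. The spread of the B cell list at week 7 rested on BTK, BCL6 and IRF4 spots, whose HG minus LG differences ran from -0.18 to 0.04 and of which 0 of 5 passed. These spots had deposited values on at most 20 of the 31 arrays. Print blocks with a follower numbered 44 of 48.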
